A study of Homo sapiens with 32 samples.

Results

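The 10 genes examined here encode ligands of the epidermal growth factor receptor (EGFR) family or proteases that release such ligands: the ligand genes HBEGF, AREG, EREG, TGFA, BTC, EGF and NRG1, and the protease genes ADAM10, ADAM12 and ADAM17. They were chosen by name, and all 10 were found among the 57773 genes of both count tables. The cells were HEK293, an established human embryonic kidney cell line, that had been transiently transfected with an expression plasmid for the angiotensin II receptor type 1 (AT1R, gene AGTR1) and kept without serum. All groups, control included, carried this plasmid, and transient transfection reaches only some cells of a culture. Cells were left untreated (control) or received 1 nM angiotensin II (AII here, AngII in the labels), 10 µg/L EGF or both (AII+EGF) for 6 h or 24 h. Total RNA was freed of ribosomal RNA and sequenced. After 6 h each of the 4 conditions had 4 libraries, and after 24 h control, AII and EGF had 4 and AII+EGF had 3. Nothing in the labels says whether replicates came from separate cultures, so p-values measure the spread between these libraries, which may be technical.

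EGFR ligands are made as membrane-anchored precursors. Metalloproteases of the ADAM family cut them outside the membrane, a step called shedding, and the freed EGF-like domain binds EGFR or its relatives. ADAM17 is the main sheddase of HB-EGF (the product of HBEGF), amphiregulin (AREG), epiregulin (EREG) and TGF-alpha (TGFA), and ADAM10 that of betacellulin (BTC) and EGF; ADAM12 can shed HB-EGF. Receptors coupled to G proteins, AT1R among them, can activate EGFR through this route, which is called transactivation. Neuregulin 1 (NRG1) belongs to the same ligand family but binds ERBB3 and ERBB4. The tables hold RNA only, and shedding itself acts on proteins, which were not measured here.

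The ligands share a receptor-binding motif held by 6 cysteines. It is shown here as coding DNA read from GRCh37, the assembly also called hg19 that the authors used, because it is what makes these otherwise different genes 1 family and because the stretch of AREG is not unique in the genome. Cysteine codons of the motif are in capitals. Each stretch is joined from 2 neighbouring exons of the canonical transcript, exons 20 and 21 for EGF and exons 3 and 4 for the other ligands. The stretches lie on the minus strand at chr5:139715582-139722296 (HBEGF), chr2:70683590-70692824 (TGFA) and chr4:75675899-75681145 (BTC), and on the plus strand at chr4:75314889-75316127 (AREG), chr4:75246778-75248392 (EREG) and chr4:110915957-110920865 (EGF).
HBEGF: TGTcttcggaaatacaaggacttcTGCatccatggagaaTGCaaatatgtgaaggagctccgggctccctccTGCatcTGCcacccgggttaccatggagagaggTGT
AREG: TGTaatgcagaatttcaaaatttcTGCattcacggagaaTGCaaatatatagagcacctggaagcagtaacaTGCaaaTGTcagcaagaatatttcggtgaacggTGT
EREG: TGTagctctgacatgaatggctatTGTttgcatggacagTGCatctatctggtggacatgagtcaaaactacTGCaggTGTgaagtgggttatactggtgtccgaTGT
TGFA: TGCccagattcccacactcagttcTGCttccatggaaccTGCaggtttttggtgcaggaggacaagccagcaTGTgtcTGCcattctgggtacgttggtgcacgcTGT
BTC: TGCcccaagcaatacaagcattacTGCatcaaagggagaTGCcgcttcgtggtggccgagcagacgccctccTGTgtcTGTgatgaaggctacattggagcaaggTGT
EGF: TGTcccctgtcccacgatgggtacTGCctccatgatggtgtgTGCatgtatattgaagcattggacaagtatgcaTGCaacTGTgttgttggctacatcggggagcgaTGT
The motif of HBEGF was identical to that of BTC at 66 of 108 bases and to that of AREG at 64 of 108, and the closest pair was TGFA and BTC with 68 of 108. EGF has a longer spacing after its second cysteine and was not aligned. No sequence is shown for NRG1.

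The proteases share the zinc-binding motif of their catalytic centre, in which 3 histidines hold the metal ion. Its coding DNA is shown with these histidine codons in capitals. It lies on the minus strand in exons 9 and 10 of ADAM10 (chr15:58920080-58925424), in exon 11 of ADAM12 (chr10:127782628-127782660) and in exon 11 of ADAM17 (chr2:9650207-9650239).
ADAM10: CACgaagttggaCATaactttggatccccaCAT
ADAM12: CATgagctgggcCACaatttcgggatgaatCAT
ADAM17: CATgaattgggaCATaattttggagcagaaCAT
ADAM10 and ADAM17 had 25 of these 33 bases in common, ADAM12 and ADAM17 had 22, and ADAM10 and ADAM12 had 18.

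Reads of 100 bases could be placed uniquely on 9 of the 10 genes, the exception being AREG. Of the 100-base windows of AREG exons, 32 of 1048 (3.05%) occur once in GRCh37, and 1016 (96.9%) also occur in AREGB, a second copy at chr4:75480629-75490486. Both exon parts of the AREG motif shown above, of 77 and 31 bases, are present unchanged in AREGB. The tables gave AREG and AREGB the same count in 29 of 31 libraries, so that AREG values stand for the pair. For ADAM17, 99.5% of windows were unique, and for the other 8 genes all were. Overlapping genes are a further limit, since the strand setting of the counting is not given in the sources used here: 31.9% of the exon bases of ADAM17 lie within IAH1, a gene on the opposite strand, and 17.9% of those of ADAM10 lie within a non-coding RNA gene on the opposite strand.

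Total counts per library were 3881841 to 8540815 (median 5987496.5) after 6 h and 6646227 to 33070903 (median 12038775) after 24 h. Protein-coding genes received 81.4% to 84.7% of the counts of a library in the 6 h table and 20.8% to 63.4% in the 24 h table, where between 8.90% and 57.2% fell on U1 small nuclear RNA. Levels are given in FPM, fragments per 1000000 counts after TMM scaling, and are compared within a time point only, since time and library preparation cannot be told apart. AGTR1 stood at 950.1 to 1191 FPM in the 4 control libraries after 6 h. The lineage markers NEFL, NEFM and VIM were abundant in control after 6 h (457 ± 97.1, 443 ± 68.5 and 312 ± 10.1 FPM, SD, n = 4), and PAX2 was at 0.58 ± 0.43. Pooled over the 16 libraries after 6 h, the lineage markers KRT8, LHX1 and KRT18 were far lower, at 10.3, 7.54 and 4.77 FPM. In that pool MYH11 and COL1A1, markers of other cell types, were at 15.2 and 15.1. Of the markers of other cell types, PTPRC and CD3E had at most 1 count in a control library at this time, VWF stood at 0.51 ± 0.23 FPM, and MYH11 and COL1A1 at 16.6 ± 2.03 and 17.0 ± 8.98. EGR1, an immediate response gene of EGFR signalling, was 4.48 ± 0.17 (SE, log2) higher with EGF than in control after 6 h, with an adjusted p of 2.4e-14 in edgeR's quasi-likelihood test.

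The members fell into 2 classes of abundance. ADAM17 and ADAM10 had 137 or more counts in every library, and the 8 other genes had few counts or none. Per kilobase of the canonical transcript and pooled over the 16 libraries after 6 h, ADAM17 stood at 11.8 FPM per kilobase and ADAM10 at 8.44. HBEGF followed with 0.505 and EGF with 0.172, so that the most abundant ligand transcript was far below either protease. BTC (0.0834), TGFA (0.0666), ADAM12 (0.0398), NRG1 (0.0352), AREG (0.0256) and EREG (0.00914) were lower still. The 95% counting intervals of neighbours in this order were separate from ADAM17 down to BTC and overlapped from BTC to EREG. Ranges over single libraries separated only ADAM17, ADAM10 and the rest. The order of the 2 proteases rests on the length used: over all annotated exons, which for ADAM17 add up to 15964 bases against 4391 in the canonical transcript, ADAM10 was 1.82 times as high as ADAM17. After 24 h ADAM17 (5.12), ADAM10 (4.55), HBEGF (0.348) and EGF (0.106) again led in FPM per kilobase, and the library ranges of the proteases overlapped. They were followed by ADAM12 (0.0716), AREG (0.0604), BTC (0.0562), EREG (0.0505), TGFA (0.0362) and NRG1 (0.0167). From ADAM12 to TGFA the 95% counting intervals of neighbours overlapped. Without the library that held most of its counts, AREG fell to 0.024 after 24 h (control replicate 1 left out) and BTC to 0.0325 (control replicate 4), and after 6 h AREG fell to 0.0092 (AII+EGF replicate 3) and EREG to 0.0048 (control replicate 3); the other members moved by less than 1.5 times. This leaving out was chosen after seeing the data.

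**Figure D1:**
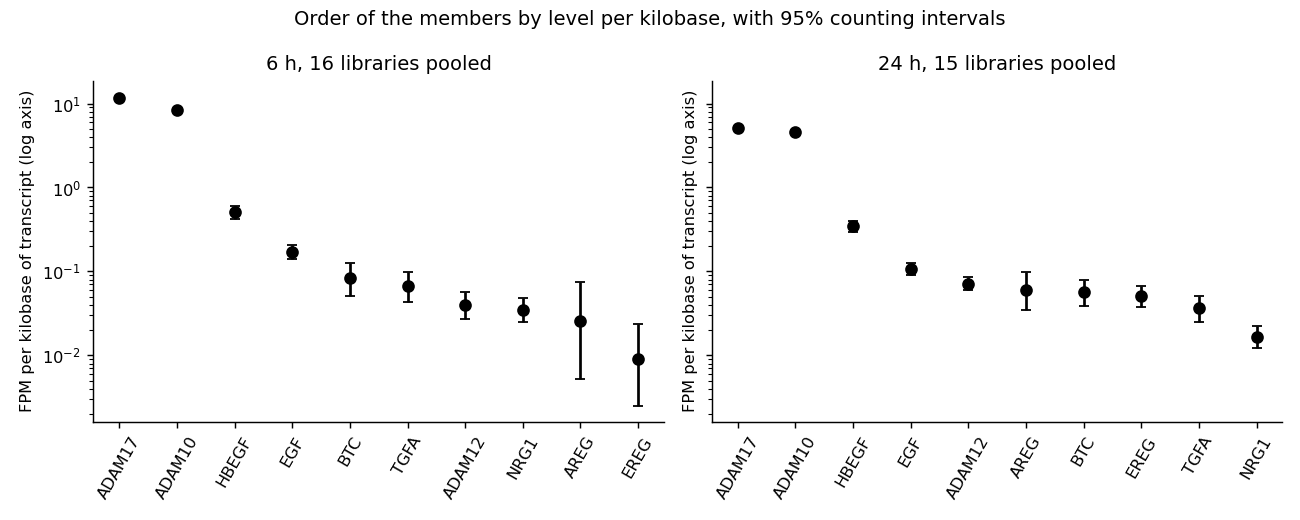
Level of each member in FPM per kilobase of the canonical transcript (log axis), pooled over the libraries of 6 h (left, 16 libraries) and 24 h (right, 15 libraries). Points are pooled levels and bars their 95% Poisson intervals, which cover counting error only. ADAM17 (11.8 after 6 h) and ADAM10 (8.44) stand well above HBEGF (0.505) and the other genes.

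Counted by the rule of the study (FDR under 0.05, fold change above 1.5 and mean FPM above 5), no member was regulated in any of the 12 comparisons. The FPM threshold alone would have kept out all members but ADAM10 and ADAM17. Across all genes the share called after 6 h was 1.73% for EGF, 1.95% for AII+EGF and 1.87% for AII+EGF against AII, and 0% for AII, for AII+EGF against EGF and for the interaction of AII and EGF. After 24 h it was 0.0316% for EGF, 0.0271% for AII+EGF and 0.0406% for AII+EGF against AII, and 0% for the other 3 comparisons. With shares this low, a count of 0 among 2 tested members after 6 h or 5 after 24 h does not set them apart from other genes. An unadjusted p under 0.05 was reached by ADAM10 with AII and with EGF after 6 h and by HBEGF with EGF and AII+EGF after 24 h. Over all genes tested, the share at such a p was 4.54% with AII and 20.2% with EGF after 6 h, and 8.48% with EGF and 5.4% with AII+EGF after 24 h.

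HBEGF encodes the ligand most closely tied to AT1R-driven transactivation. After 6 h its counts were 8, 8, 6 and 3 in the control libraries, 5, 5, 3 and 3 with AII, 7, 6, 8 and 9 under EGF, and 15, 5, 9 and 13 with AII+EGF. All 16 libraries thus held HBEGF reads, none more than 15, and the groups overlapped. In FPM this was 1.19 ± 0.56 in control, 0.76 ± 0.19 with AII, 1.11 ± 0.16 under EGF and 1.72 ± 0.77 with AII+EGF (SD, n = 4 each). The difference from control was -0.43 FPM with AII (p = 0.2), -0.08 with EGF (p = 0.771) and 0.52 with AII+EGF (p = 0.343) in exact two-sided permutation tests, whose smallest possible p was 0.0286. AII+EGF differed from EGF by 0.6 FPM (p = 0.2, exact permutation test). From the pooled counts of 42 and 25, the ratio of AII+EGF to control was 1.49 with a 95% counting interval of 0.89 to 2.56, and that of AII to control was 0.656 (0.327 to 1.28). The ratio of EGF to control was 0.967 (0.55 to 1.71). No change of HBEGF was detected at this depth, and these intervals cover counting error only. HBEGF did not pass the filter on low counts after 6 h and had no p in the fit across genes.

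After 24 h HBEGF passed the filter. Its level was 0.338, 0.667, 0.425 and 0 FPM in the control libraries and 0.332, 0.205, 0.906 and 0.542 with AII. With EGF it was 0.808, 0.464, 1.14 and 2.24 FPM, and with AII+EGF 1.89, 1.05 and 1.33. The AII+EGF libraries all lay above control, while those of EGF overlapped it. The log2 change was 1.68 ± 0.77 with EGF (SE; adjusted p = 0.558) and 1.97 ± 0.80 with AII+EGF (adjusted p = 0.905) in edgeR's quasi-likelihood test over 22174 genes. Neither passed the threshold. With AII alone the log2 change was 0.45 ± 0.79 (adjusted p = 1), and AII+EGF against EGF gave 0.30 ± 0.77 (adjusted p = 1). Of the 6 libraries with 10 or more HBEGF counts, 4 had received EGF. The filter scales counts to library depth, and only some libraries have to reach its limit. The highest HBEGF levels were in libraries with EGF, so HBEGF entered this test mainly through groups where it was high. The 2 series of library numbers in the labels (libraries 1 and 2 against 3 and 4 of each condition) gave different sizes: the ratio of EGF to control was 0.34 on the log2 scale in the first series, from 13 and 16 counts, and 2.99 in the second, from 48 and 8 counts. For AII+EGF it was 1.91 in the first series, from 32 counts in 1 library and 16 in control, and 2.49 in the second, from 33 and 8 counts. All columns of the first series are named filtered, but only 1 of the second, an AII+EGF library. Series and this naming can thus hardly be told apart. The EGF effect on HBEGF was 1.75 ± 0.86 (SE, log2) larger after 24 h than after 6 h in the joint fit of both tables, with an adjusted p of 0.492 in edgeR's quasi-likelihood test, so a difference between the time points did not pass the test either. U1 counts and the share of protein-coding counts moved with the time point, and their part in this difference was not tested. The summed level of the 7 HEK293 lineage markers also differed after 24 h, at 1852 to 2074 FPM in control and 3285 to 4354 with EGF. NEFM alone stood at 1382 ± 123 FPM in control, and 1 of the 6 lineage markers tested passed the test with EGF. For 5 markers of other cell types the sum after 24 h was 14.8 to 29.8 in control and 13.7 to 19.5 with EGF, with CD3E at 0 in control. The part of these markers in the difference was not tested. Relative to the counts on protein-coding genes alone, HBEGF was at 0.848 ± 0.65 in control, 1.17 ± 0.71 with AII, 2.69 ± 1.79 under EGF and 3.29 ± 0.90 with AII+EGF after 24 h.

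**Figure D2:**
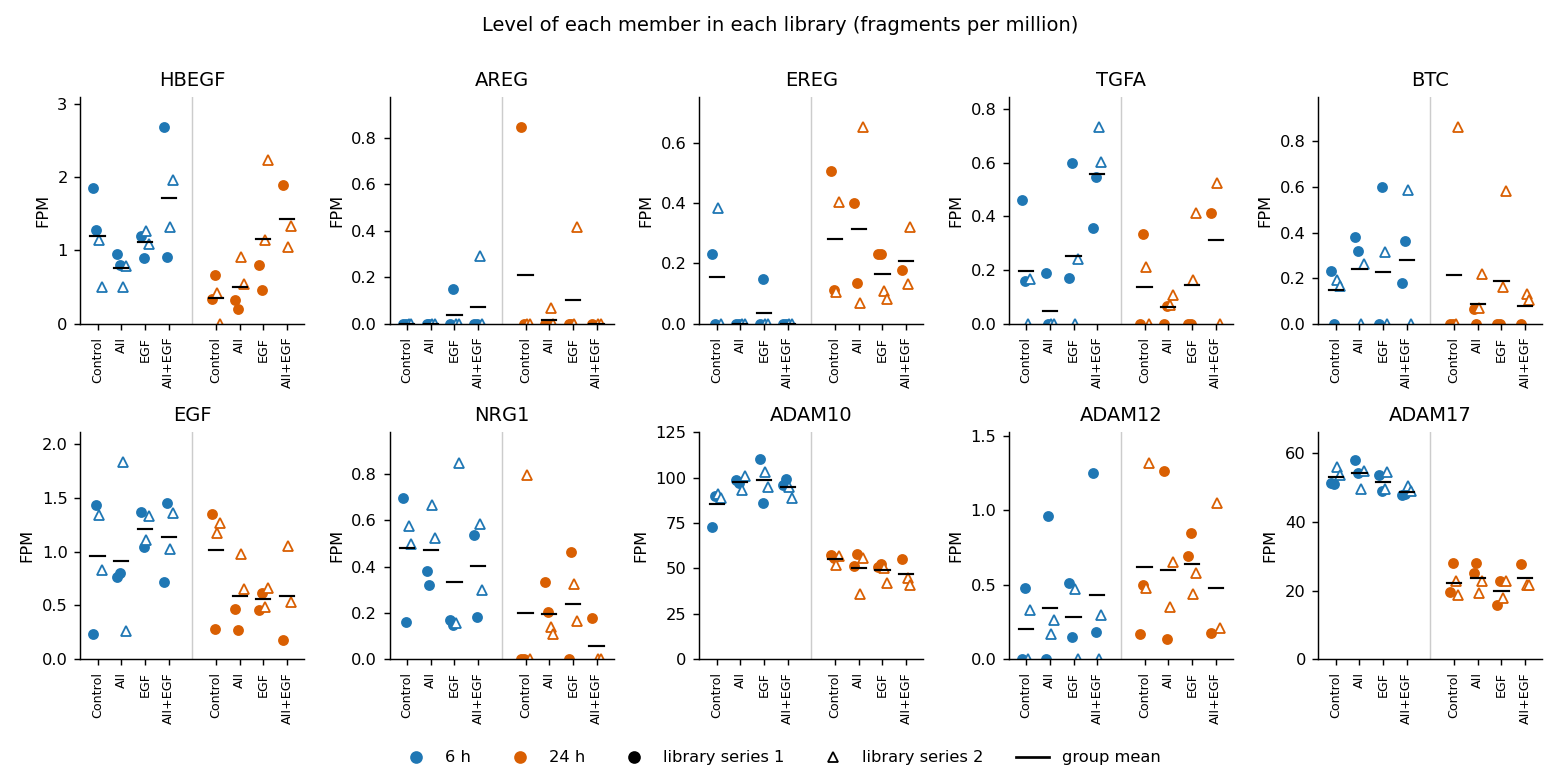
FPM of each of the 10 members in every library (points, 6 h in blue and 24 h in orange, filled circles for the first and open triangles for the second library series) by condition, with the group mean as a line; each panel has its own axis from 0. For 6 h the series are only the earlier and later library numbers of each condition, which run without a gap. ADAM10 and ADAM17 form tight groups, HBEGF after 24 h is at 1.05 to 1.89 FPM in the 3 AII+EGF libraries, and 10 of the 16 AREG counts after 24 h lie in control replicate 1.

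AREG, EREG, TGFA and BTC encode further EGFR ligands, each made from a precursor of its own. AREG had 3 counts in all 16 libraries after 6 h, of which 2 were in 1 AII+EGF library and 1 in an EGF library. Control was at 0 in all 4 libraries, which allows up to 0.137 FPM over the group (3 counts). After 24 h it had 16 counts, 10 of them in control replicate 1, 5 in EGF replicate 4 and 1 in AII replicate 3. The other 12 libraries were at 0. AREG was thus at the edge of detection in all conditions, and no group stood apart. EREG had 4 counts after 6 h, 3 of them in control, and 50 after 24 h, when every library had 1 to 7. Its level after 24 h was 0.282 ± 0.20 FPM in control, 0.314 ± 0.27 with AII, 0.164 ± 0.08 under EGF and 0.209 ± 0.10 with AII+EGF (n = 3 for the last).

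Among the 8 members compared by permutation after 6 h, TGFA had the smallest p. Its counts were 2, 1, 0 and 1 in control, 1, 0, 0 and 0 with AII, 1, 4, 0 and 2 under EGF, and 2, 3, 5 and 4 with AII+EGF. The AII+EGF libraries had 0.357 to 0.732 FPM, and those of control had 0 to 0.463, so the groups overlapped. The difference of 0.36 FPM between them had an exact permutation p of 0.0571, and the ratio of the pooled counts, 14 to 4, was 3.11 with a 95% counting interval of 0.977 to 13. After 24 h TGFA was at 0.136 ± 0.17 FPM in control and 0.312 ± 0.28 with AII+EGF, and 6 of 15 libraries were at 0. BTC had 0 to 4 counts in each library after 6 h. After 24 h it had 32 counts in all, of which 15 (46.9%) fell in control replicate 4, a library with 8.10% of the depth.

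The transcript of EGF, the ligand that was also added to the medium as protein, was present in all 31 libraries. Its counts ran from 1 to 11 after 6 h and from 3 to 22 after 24 h. After 6 h its level was 0.959 ± 0.55 FPM in control, 0.915 ± 0.66 with AII, 1.21 ± 0.16 under EGF and 1.14 ± 0.34 with AII+EGF. After 24 h control had 1.35, 0.278, 1.17 and 1.26 FPM, and the AII, EGF and AII+EGF libraries lay between 0.177 and 1.05. Control replicate 2 sat among the treated libraries, and the other 3 control libraries lay above all of them. The log2 changes were -0.77 ± 0.68 with AII, -0.84 ± 0.68 under EGF and -0.86 ± 0.75 with AII+EGF (SE), with adjusted p of 1, 0.808 and 0.997 in edgeR's quasi-likelihood test. NRG1 had 10 counts in each of the 4 conditions after 6 h, at 0.481 ± 0.23 FPM in control and 0.401 ± 0.19 with AII+EGF. After 24 h it had 43 counts, and 15 of them fell in control replicate 3 while the other 3 control libraries had none.

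For the members that did not pass the filter, 52 exact permutation tests were made against control and of AII+EGF against EGF (8 genes after 6 h and 5 after 24 h). None gave a p below 0.05. The smallest p was 0.0571, and the smallest possible p was 0.0286 with 4 against 4 libraries and with 3 against 4. All p adjusted over the 52 were 1, which says little, since an adjusted p under 0.05 would have needed 30 tests at the smallest possible p at once.

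The proteases were measured with far more counts. ADAM10 is a general sheddase that also cleaves Notch and cadherins. After 6 h it stood at 72.6, 89.8, 91.2 and 88.8 FPM in control, 98.7, 96.8, 93.1 and 101 with AII, 110.0, 86.2, 103 and 94.7 under EGF, and 95.8, 99.3, 94.6 and 89.0 with AII+EGF. Control replicate 1 was lower than all other libraries, and AII was the only treatment whose 4 libraries all lay above control. The log2 change was 0.18 ± 0.08 with AII (adjusted p = 0.987), 0.20 ± 0.08 with EGF (adjusted p = 0.179) and 0.14 ± 0.08 with AII+EGF (adjusted p = 0.382) in edgeR's quasi-likelihood test over 18618 genes. Without control replicate 1 these were 0.11, 0.13 and 0.08. AII+EGF against EGF gave -0.06 ± 0.08 (adjusted p = 0.868). After 24 h ADAM10 was at 55.5 ± 2.57 FPM in control, 50.3 ± 9.98 with AII, 49.0 ± 4.71 under EGF and 46.8 ± 7.36 with AII+EGF, and the adjusted p against control were 0.795 or higher. The EGF effect was 0.38 ± 0.16 (SE, log2) smaller after 24 h than after 6 h (adjusted p = 0.394 in edgeR's quasi-likelihood test).

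ADAM17 stood at 51.3, 51.0, 56.0 and 53.6 FPM in control after 6 h. It was at 58.0, 54.1, 49.7 and 54.8 FPM with AII, 53.5, 48.9, 49.6 and 54.6 under EGF, and 47.7, 48.1, 50.4 and 48.9 with AII+EGF. All 4 AII+EGF libraries lay below all 4 control libraries, by a small margin. The log2 change with AII+EGF was -0.12 ± 0.08 (adjusted p = 0.437), with AII 0.03 ± 0.08 (adjusted p = 0.991) and with EGF -0.04 ± 0.08 (adjusted p = 0.847). After 24 h the levels were 22.2 ± 4.15 FPM in control, 23.8 ± 3.75 with AII, 19.8 ± 3.48 under EGF and 23.6 ± 3.57 with AII+EGF. The ADAM17 data allow a bound. In the 5 comparisons between conditions after 6 h, the 95% intervals of ADAM17 ran from -0.31 to 0.19 and those of ADAM10 from -0.23 to 0.37 on the log2 scale, so that all 10 lay within a change of 1.5-fold. After 24 h this held for 5 of 5 intervals of ADAM10 and 4 of 5 of ADAM17, the exception being AII+EGF against EGF, which reached 0.63. ADAM12, a protease known from muscle and placenta, had 0 to 7 counts per library after 6 h and 2 to 23 after 24 h. Its level after 24 h was 0.617 ± 0.49 FPM in control and 0.479 ± 0.49 with AII+EGF, and the 95% interval of that change ran from -2.36 to 1.34 on the log2 scale, too wide to bound it.

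**Figure D3:**
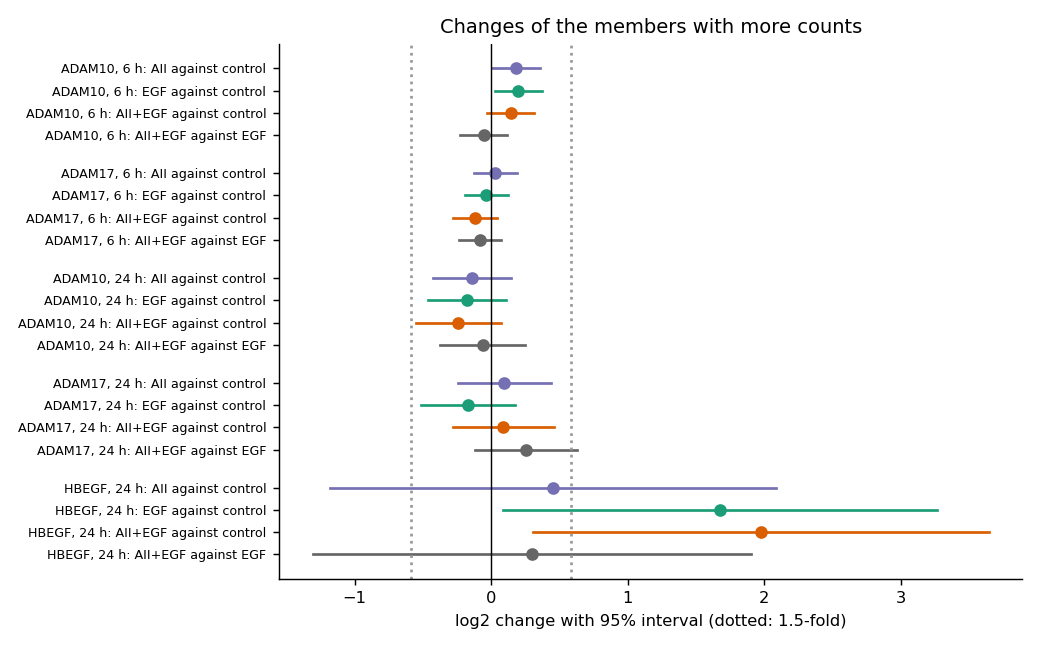
Log2 changes of ADAM10 and ADAM17 after 6 h and 24 h and of HBEGF after 24 h (points) with their 95% intervals from edgeR (lines); dotted lines mark a change of 1.5-fold. The intervals of both proteases after 6 h lie between -0.31 and 0.37, and those of HBEGF span -1.31 to 3.64.

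Genes that act with the members were more often measurable. Of 4 receptors, EGFR was higher with EGF after 6 h (58.0 ± 5.27 FPM against 45.6 ± 4.87 in control, log2 change 0.35 ± 0.10 SE, adjusted p = 0.0319) and with AII+EGF (60.5 ± 5.17 FPM, 0.41 ± 0.10, adjusted p = 0.0123). The EGFR libraries treated with EGF held 51.9 to 64.3 FPM and those of control 40.7 to 50.7, so the groups did not overlap. EGFR did not reach a change of 1.5-fold and was not called. With 1 library left out, its adjusted p rose above 0.05 in 4 of 16 edgeR fits for EGF (up to 0.118). For AII+EGF this was so in 2 of 16 (up to 0.0526). The library numbers of 6 h run without a gap, so the labels give no separate series at that time. First and second series here mean the earlier and later numbers of each condition. The log2 ratio of EGFR with EGF to control was 0.12 in the first series and 0.58 in the second. For AII+EGF it was 0.37 and 0.45. With AII alone EGFR was at 42.5 ± 4.33 FPM, and AII+EGF exceeded AII by 0.51 ± 0.10 (adjusted p = 0.00207). The most abundant receptor transcript per kilobase in control after 6 h was ERBB2 with 19.7 ± 1.90 FPM per kilobase. ERBB2, ERBB3 and ERBB4 did not pass the test in any comparison. Of 5 further family ligands, only NRG2 and NRG4 passed the filter, and neither passed the test. NRG4, a ligand of ERBB4, was the highest of them with 22.0 ± 5.35 FPM in control after 6 h. Per kilobase this was 6.86 ± 1.66, above HBEGF, the highest ligand among the members.

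Among 11 other membrane proteases, 9 passed the filter and ADAM8 was called lower with EGF after 6 h. It fell from 5.41 ± 1.35 FPM in control to 2.81 ± 0.42 (log2 change -0.93 ± 0.26 SE, adjusted p = 0.0318 in edgeR's quasi-likelihood test), and with AII+EGF it was at 3.61 ± 0.46 without passing the test. ADAM8 had 14 to 41 counts in these libraries, and its call was lost in 5 of 16 fits that left out 1 library, with adjusted p up to 0.122. ADAM15 was the most abundant of these proteases per kilobase in control after 6 h (31.2 ± 6.58 FPM per kilobase), and ADAM9 after 24 h (11.9 ± 1.32). Neither passed the test. Across all genes, 3.6% were higher and 2.37% lower with EGF at an adjusted p under 0.05, and 4% and 2.11% with AII+EGF.

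Of 20 regulators of shedding, all of which passed the filter, 1 rose and 1 fell with EGF after 6 h, and 2 rose with AII+EGF. Over all genes tested, 3.6% were higher and 2.37% lower with EGF, and 4% higher with AII+EGF. In a list of 20 genes, counts this small do not set the regulators apart. TIMP3, a secreted inhibitor of metalloproteases that acts on ADAM17 and ADAM10, was at 79.8 ± 2.90 FPM in control and rose to 97.9 ± 7.67 with EGF (log2 change 0.30 ± 0.07 SE, adjusted p = 0.0101) and to 108 ± 4.20 with AII+EGF (0.44 ± 0.07, adjusted p = 2.6e-04). The TIMP3 libraries of control (76.7 to 83.5 FPM) did not overlap those of EGF (90.5 to 108) or AII+EGF (104 to 112). With AII alone TIMP3 was at 74.3 ± 0.23 FPM. FURIN, the proprotein convertase that removes the prodomain of ADAMs, rose with AII+EGF from 63.8 ± 4.36 to 87.5 ± 1.89 FPM (0.45 ± 0.09, adjusted p = 0.00207). It was at 76.8 ± 3.70 FPM with EGF, where it did not pass the test. Over 22 alternatives in edgeR or DESeq2 its adjusted p with EGF ran from 0.0314 to 0.166, and 19 kept the outcome. No regulator passed the test for AII+EGF against EGF, so FURIN is not shown to respond to AII+EGF alone. NRD1, which encodes nardilysin, an enhancer of shedding by ADAM17, fell with EGF from 211 ± 15.6 to 179 ± 7.13 FPM (-0.24 ± 0.07, adjusted p = 0.0363). The adjusted p of NRD1 with EGF rose above 0.05 in 9 of 16 edgeR fits without 1 library. With AII+EGF NRD1 fell to a similar level without passing the test, at 183 and 179 FPM in the 2 library series. Over 22 alternatives in edgeR or DESeq2 its adjusted p with AII+EGF ran from 0.0170 to 0.273, and 17 kept the outcome. The log2 ratios of NRD1 to control were then -0.17 and -0.27, beside -0.20 and -0.28 with EGF. NRD1 was also the most abundant regulator per kilobase in control after 6 h (58.7 ± 4.34 FPM per kilobase), and TIMP1 was so after 24 h (33.1 ± 4.66). None of these changes except that of ADAM8 reached 1.5-fold. The median log2 change of the 20 regulators was -0.04 with EGF and 0.04 with AII+EGF, beside -0.01 and -0.01 over all genes tested. No gene of the receptor, protease, ligand or regulator lists had an adjusted p under 0.05 after 24 h, nor with AII alone at either time. For TIMP3 the log2 change after 24 h was 0.33 ± 0.13 with EGF (adjusted p = 0.48) and 0.35 ± 0.14 with AII+EGF (adjusted p = 0.869) in edgeR's quasi-likelihood test, and its EGF effect differed between the time points by 0.03 ± 0.14 (SE, log2; adjusted p = 0.977).

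**Figure D4:**
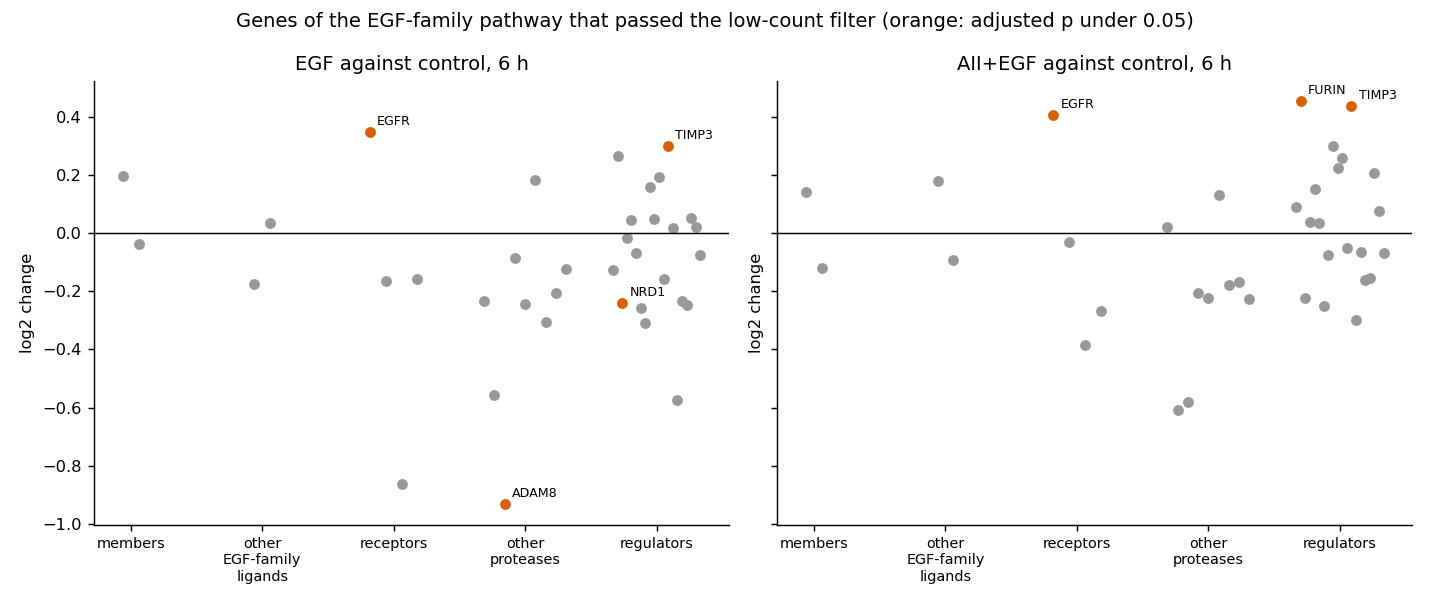
Log2 changes with EGF (left) and AII+EGF (right) against control after 6 h for every member and every gene of the 4 further lists that passed the filter on low counts (1 point per gene, orange where the adjusted p was under 0.05). EGFR (0.35 and 0.41) and TIMP3 (0.30 and 0.44) are orange in both panels, FURIN (0.45) with AII+EGF, and ADAM8 (-0.93) and NRD1 (-0.24) with EGF.

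The transcripts whose log2 FPM followed that of HBEGF most closely over the 16 libraries after 6 h were RP11.21A7A.2 (Pearson r = 0.857), RIOK3 (0.833), PAXIP1.AS1 (0.798), FUCA2 (0.778) and FDFT1 (0.777). These are the highest of 18618 correlations with a gene of 3 to 15 counts, the libraries share their conditions, and the values are given as a description.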

How the data were processed

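Paired-end RNA-seq (2×100 bases) of AT1R-transfected HEK293 cells covered control, AII, EGF and AII+EGF at 6 h and 24 h. The authors deposited raw counts of reads per gene, without normalization. Per the submitters' processing notes these came from Trim Galore, cutadapt 1.8.1, TopHat2 2.0.14 (hg19) and featureCounts 1.4.6; the text of the series names HISAT2 instead. Of 32 labelled libraries, 16 after 6 h and 15 after 24 h were used; 1 AII+EGF library of 24 h had no matching column and was not analysed here, and 0 per-sample columns stayed unmapped. Of the columns after 24 h, 8 are named filtered and 7 are not, without explanation. Those named filtered are all columns of the first library series and, in the second, only that of AII+EGF replicate 3. Groups came from the labels, which give no replicate numbers, so replicates were numbered in accession order.

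Counts were normalised with TMM, filtered with filterByExpr and tested with edgeR 4.0.16 (quasi-likelihood F test, R 4.3.3) in 1 fit per time point with all 4 conditions, and p-values were adjusted after Benjamini-Hochberg over 18618 (6 h) and 22174 (24 h) genes. Differences between time points came from a joint fit over 21932 genes. FPM is the count divided by the TMM-scaled library size. Members that did not pass the filter were compared with exact permutation tests on FPM. Intervals on pooled counts are exact Poisson or Clopper-Pearson intervals of 95%, and a group at 0 was given the limit of 3 counts; both cover counting error only. Scripts were tested on simulated data. Coordinates, transcripts and sequences are those of GRCh37 with the GENCODE annotation lifted to it, whereas the authors counted on an Ensembl annotation.

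The 10 members and the lists of further ligands, receptors, proteases and regulators were chosen with earlier results of these data known. Named were all members, genes of the lists with an adjusted p under 0.05 in any comparison, the most abundant gene of each list in control, AGTR1, EGR1 and FOS as a check, cell type markers, and the 5 genes closest to HBEGF in Pearson correlation of log2(FPM + 0.5). Alternatives were DESeq2 1.42.0, its size factors in edgeR, no filter, no fold change or FPM filter, an FDR of 0.01, a library series block, protein-coding genes only and each library left out. PECAM1 was not found by that name.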

Additional observations from a re-analysis of the deposited data

Results flagged for a closer look

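Single libraries lay apart from the other 3 of their group in 8 of 86 groups of 4 libraries tested (members and the 5 pathway genes that passed the test, with more than 3 counts in a library), by the gap to the nearest value over the range of the group. Chance flags about 1 in 20 such groups when values are normally distributed. That rate does not apply to scarce genes with 0 in 3 libraries, where the gap equals the range by construction, as in 4 of the 8. After 6 h ADAM10 was at 72.6 FPM in control replicate 1, against 88.8 to 91.2 in the others, and NRG1 was at 0.849 FPM in EGF replicate 4, against 0.149 to 0.171, from 7 counts. After 24 h AREG was at 0.845 FPM in control replicate 1 (10 counts) and 0.414 FPM in EGF replicate 4 (5 counts), with 0 in the other libraries of both groups. BTC was at 0.862 FPM in control replicate 4 and NRG1 at 0.796 FPM in control replicate 3, from 15 counts each, with 0 in the other 3 control libraries. The EGF transcript was at 0.278 FPM in control replicate 2, against 1.17 to 1.35 in the others, and TIMP3 was at 52.8 FPM in control replicate 3, against 39.4 to 41.6.

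EGR1 differed between the time points. The effect of EGF on it was smaller after 24 h than after 6 h (log2 difference -1.96, adjusted p = 3.5e-04), and so was that of AII+EGF (log2 difference -1.72, adjusted p = 0.00407), in the joint edgeR fit. Over all 21932 genes tested, 0.173% (EGF) and 0.123% (AII+EGF) had such a difference at an adjusted p under 0.05. It was seen for 0 of the 4 members tested, which at these shares does not set them apart.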

How the results depend on the processing

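The count of members called regulated was 0 in all 12 comparisons and under every alternative. Of the other values of members computed under an alternative, 665 of 676 kept their direction and side of the threshold. The direction turned for 9 values. Leaving out each library gave log2 changes of -0.0046 (without AII replicate 1) to 0.072 for ADAM17 with AII after 6 h, -0.048 (without AII+EGF replicate 1) to 0.22 for ADAM17 with AII+EGF after 24 h, -0.038 (without AII replicate 3) to 0.95 for HBEGF with AII after 24 h, and -0.20 to 0.037 (without AII+EGF replicate 4) for ADAM10 in AII+EGF against EGF after 24 h. The last pair was -0.036 and 0.036 without the 2 libraries with most U1 counts, an alternative chosen after seeing the data. The FPM difference of HBEGF with EGF after 6 h ranged from -0.31 to 0.14, the latter without control replicate 1. ADAM10 over ADAM17 per kilobase turned from 0.715 to 1.82 after 6 h and from 0.887 to 2.25 after 24 h with the length of all annotated exons, also chosen after seeing the data. The exact permutation p of HBEGF after 6 h reached 0.0286, the smallest it allows with 3 against 4 libraries, for AII without control replicate 4 (-0.67 FPM) and for AII+EGF against EGF without AII+EGF replicate 2 (0.87 FPM). For HBEGF after 24 h, leaving out each library gave 1.16 to 2.17 (EGF) and 1.56 to 2.47 (AII+EGF) on the log2 scale; adjusted p were 0.441 or higher under all alternatives, and DESeq2 gave none for EGF. Without 1 library the adjusted p of EGFR rose above 0.05 in 4 of 16 edgeR fits with EGF (up to 0.118) and in 2 of 16 with AII+EGF (up to 0.0526). No paired analysis was possible because replicates carry no number in the labels. Depth limits the 8 scarce members, whose 3-count limit was 0.364 to 0.787 FPM in a library after 6 h and 0.159 to 0.393 after 24 h.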

Other observations

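Counts of the scarce ligands after 24 h were unevenly spread over libraries. AREG had 62.5% of its 16 counts in 1 control library that held 5.51% of the depth, BTC 46.9% of its 32 counts in 1 with 8.10%, and NRG1 34.9% of its 43 counts in 1 with 8.77%, all of them control libraries and each a different one. For EREG, with 50 counts, the highest library held 14% of them, with 8.10% of the depth. For ADAM10 and ADAM17 the highest library held 9.18% and 10.4% of the counts with 8.39% of the depth, so uneven spread was seen where counts were few. No explanation was tested.

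FOS, which encodes a subunit of the AP-1 transcription factor, stood at 0.98 ± 0.35 FPM in control after 6 h and was higher with EGF (5.12 ± 1.02) and AII+EGF (6.60 ± 1.49) (SD, n = 4; adjusted p of 3.2e-05 and 2.9e-06 in edgeR's quasi-likelihood test). AGTR1 was at 1388 ± 93.2 FPM with AII and 1497 ± 76.0 with AII+EGF, against 1096 ± 106 in control and 1097 ± 94.6 with EGF after 6 h. The AII+EGF libraries were 0.45 ± 0.08 (SE, log2) above control (adjusted p = 5.0e-04 in edgeR's quasi-likelihood test). With AII alone AGTR1 did not pass this test. Reads of the transfected plasmid and of the chromosomal AGTR1 gene cannot be told apart.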
